A study of Mus musculus with 36 samples.

Results

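Mitochondrial ribosomal protein genes are nuclear genes that encode the protein subunits of the ribosome inside mitochondria. They were taken as the protein-coding genes whose symbol starts with Mrpl or Mrps and a digit, and whose mean abundance over all libraries was at least 1 TPM. TPM is a length-corrected share of the transcripts in a library, scaled to the same total in each. The rule found 78 of 51912 gene IDs. The symbol pattern matched 83 IDs, of which 78 were protein-coding and 5 were processed pseudogenes, and every coding gene reached the level. All 78 also passed the filter on low counts and were among the 17990 genes tested. By their known place in the ribosome, 30 encode large subunit proteins with a bacterial counterpart and 21 encode large subunit proteins classed as specific to mitochondria. Another 16 encode small subunit proteins with a bacterial counterpart, and 10 encode small subunit proteins classed as specific to mitochondria. The last, Mrps36, keeps its name although its protein is now assigned to the 2-oxoglutarate dehydrogenase complex.

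The mitochondrial ribosome translates the few mRNAs that mitochondrial DNA encodes, whose products are core subunits of the respiratory chain and the ATP synthase. Its ribosomal RNAs come from mitochondrial DNA, whereas each of its proteins is made in the cytosol from a nuclear gene and imported. In mammals it has lost RNA and gained proteins relative to bacterial ribosomes, so that many of its subunits have no bacterial relative. Neurons rely heavily on oxidative phosphorylation, whereas pluripotent stem cells draw more on glycolysis.

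Poly(A) RNA was sequenced from HM1 cells, a mouse embryonic stem cell line, on their way to motor neurons, at days 0, 0.5, 1, 1.5, 2, 2.5, 3, 3.5, 4, 5, 6 and 7, with 3 libraries at each of the 12 time points. Before day 0 every culture, freed of feeder cells, grew in N2B27 medium with bFGF, and on the last of those days also with CHIR99021, an activator of Wnt signalling, SB431542, an inhibitor of Activin and Nodal receptors, and DMH1, an inhibitor of BMP receptors. The day 0 libraries are labelled control, and all later ones were treated with 100 nM retinoic acid (RA) and 500 nM SAG, an agonist of Hedgehog signalling, in medium renewed each day. There was no untreated group after day 0, so the effects of RA, of SAG and of time in culture cannot be told apart. The labels call the replicates biological but do not name separate cultures. The p-values therefore refer to variation among these libraries only, part of which may be technical.

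Library totals ran from 26567321 to 35757989 expected counts, and transcripts of mitochondrial DNA took 0.949% to 1.92% of them. The labels name the cells neural progenitors at every time point. The summed level of 5 progenitor markers (Sox1, Sox2, Pax6, Nkx6-1 and Olig2) was 59.1 to 64.8 TPM in the day 0 libraries, where 4 caudal epiblast markers (T, Cdx2, Nkx1-2 and Wnt3a) reached 542 to 595 TPM. At day 7 the progenitor markers summed to 293 to 309 TPM and the caudal epiblast markers to 0.94 to 2.06 TPM. Sox2 gave 55.8 TPM of the progenitor sum at day 0 and 174 TPM at day 7 on average. Pax6 averaged 1.10 TPM at day 0 and 1.05 TPM at day 7, whereas Sox1, Nkx6-1 and Olig2 were higher at day 7. The 5 motor neuron markers (Isl1, Mnx1, Lhx3, Chat and Slc18a3) summed to 207 to 219 TPM at day 3, but to 12.7 to 15.1 TPM at day 7. At day 7, 4 glial markers (Nfia, Fabp7, Slc1a3 and Aldh1l1) summed to 3408 to 3564 TPM, against 19.3 to 21 TPM at day 0, and Fabp7 gave 3188 TPM of the day 7 sum on average. These are mixed cultures measured in bulk, so fewer cells of a type and less RNA per cell cannot be told apart.

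The most abundant of the genes by mean TPM over all libraries were Mrps21, at 204 TPM, Mrps23 and Mrpl30. Mrps21 encodes a small subunit protein with a bacterial counterpart, and its time point mean ran between 169 TPM at day 0.5 and 238 TPM at day 5. The lowest was Mrpl23, a large subunit protein gene with a bacterial counterpart, at 4.73 TPM. Mrpl57 and Mrpl1 came next above it, with Mrpl1 at 15.4 TPM. Mrpl1 encodes the protein of the mobile stalk beside the exit site for spent tRNA. The Mrpl23 value is uncertain, because 67.6% of the 31-base words in its longest coding transcript also occur in the processed pseudogene Mrpl23-ps1. That pseudogene was listed at time point means of 67.6 to 130 TPM, so reads of the coding gene and of the pseudogene may have been exchanged.

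Every one of the 78 genes changed over the 12 time points by edgeR's quasi-likelihood test (largest Benjamini-Hochberg adjusted p = 0.0156), but so did 96.1% of all genes tested, so that count does not set them apart. Their summed abundance was 5859, 5774 and 6001 TPM in the day 0 libraries, 6369, 6439.5 and 6574 TPM at day 1.5, and 5296, 5191 and 5244 TPM at day 7. The day 1.5 libraries lay above and the day 7 libraries below all libraries of day 0. In CPM (read counts as a share of the library, scaled by edgeR's trimmed mean of M-values, TMM, and not corrected for length) the sum was 3369, 3337 and 3434 at day 0, 3665, 3753 and 3857 at day 1.5, and 2286, 2241 and 2307 at day 7. The decline was thus steeper in counts than in TPM. The ratio of summed large subunit to summed small subunit TPM was 1.93 ± 0.017 at day 0 and 1.94 ± 0.0054 at day 1.5, and 1.84 ± 0.031 at day 7 (SD, n = 3 each). The small subunit sum takes in Mrps6, whose TPM rose and may hold reads of other genes, as described below. The ratio was not computed without Mrps6, and its change was not tested.

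**Figure D1:**
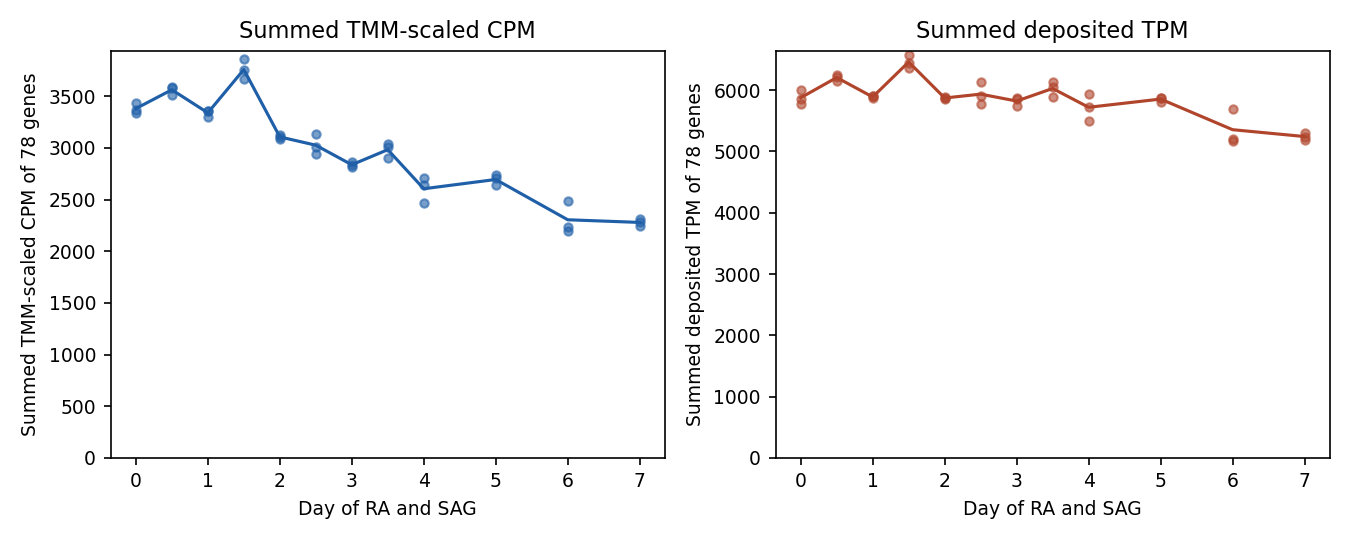
Summed level of the 78 genes by day of RA and SAG, in TMM-scaled CPM (left) and in deposited TPM (right). Points are libraries, 3 per day, and the line joins their means. Both panels peak at day 1.5 and end below day 0, and the end point lies further below the start in CPM.

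The path was not smooth. Relative to the preceding sample, TMM-scaled means were higher for 57 of the 78 genes at day 0.5, for 66 at day 1.5 and for 58 at day 3.5. They were higher for 54 at day 5. Against their preceding samples they were lower for 58 genes at day 1, for 73 at day 2, for 59 at day 3, for 73 at day 4 and for 75 at day 6. Days 2.5 and 7 were even, each with 37 genes higher and 41 lower. At each of these 11 steps between 48.9% and 53.9% of all genes tested were higher on this scale. In TPM 53, 63, 56 and 46 genes were higher at days 0.5, 1.5, 3.5 and 5, and 54, 60, 51, 56 and 66 were lower at days 1, 2, 3, 4 and 6. The share of all genes tested that were higher in TPM ran from 47.5% to 66.4%, with 62.7%, 60.3%, 66.4% and 60.6% at days 2, 3, 4 and 6. The sum at day 1.5 in CPM lay above every library of days 1 and 2. Summed markers of cell division (Mki67, Top2a, Ccnb1, Mcm2 and Pcna) were also highest at day 1.5, at 1576 to 1582 TPM, against 1421 to 1471 TPM at day 1, and their part in the peak was not tested. The 83 nuclear genes of oxidative phosphorylation subunits moved alike at several steps in TMM-scaled means. Of these, 63 were higher at day 1.5, 54 at day 3.5 and 78 at day 5. Only 22, 12, 14 and 10 were higher at days 1, 2, 4 and 6. At days 0.5 and 3 they were near even, with 43 and 40 higher. TMM factors ran from 0.924 to 0.936 at day 1.5 and from 0.994 to 1.01 at day 2, and their part was not tested. Of the 78 genes, 37 had their highest mean CPM at day 1.5, while 35 had their lowest at day 7 and 25 at day 6. In TPM the extremes were spread more widely, with 15 genes highest at day 1.5, 15 at day 0, 14 at day 0.5 and 11 at day 5, and with 29 lowest at day 7, 19 at day 0 and 9 at day 6. None of these steps was tested, and the days of the extremes were not counted over all genes.

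**Figure D2:**
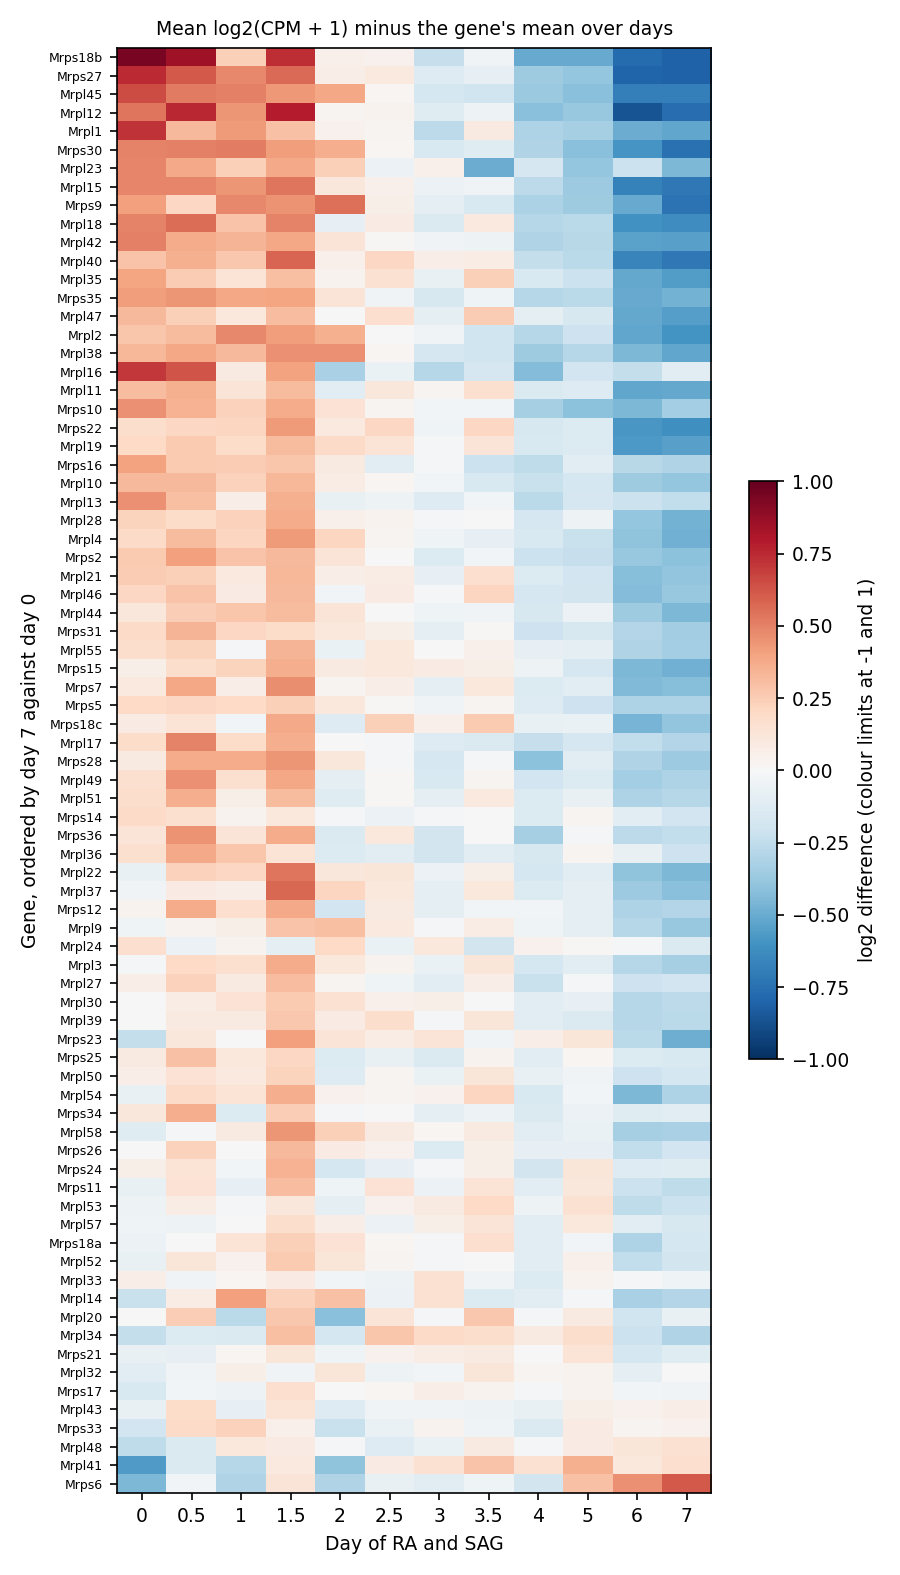
Time course of each of the 78 genes as its mean log2(CPM + 1) at a time point minus its mean over all time points, ordered by the fold change of day 7 against day 0. Most rows run from red at days 0 to 1.5 to blue at days 6 and 7, a darker column stands at day 1.5, and Mrps6 and Mrpl41 at the foot run the other way.

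Day 7 was compared with day 0, the end of the course with its start. Of the 78 genes, 63 were lower and 6 were higher by edgeR's quasi-likelihood test at a Benjamini-Hochberg adjusted p under 0.05, beside 41.2% and 44.1% of all genes tested. Their median log2 fold change was -0.48, and that of all genes tested was 0.05. At least 2-fold lower were 12 of them, beside 22.9% of all genes tested, so that most of the falls were small. These counts hold for the scale of TMM-normalised counts. In deposited TPM the median gene of the whole table itself moved up, by 0.28 in log2(TPM + 1), and 39 of the 78 genes were lower and 20 higher by limma, with a median of -0.13, beside 30.6% of all genes tested lower and 53.1% higher in the same fit. All 39 were among the 63 genes lower in counts, and the 20 took in the 6 that were higher in counts. Of the genes lower in counts, 14 lay above 0 in log2(TPM + 1), and 5 of these were called higher there (Mrpl50, Mrpl53, Mrps11, Mrps24 and Mrps34).

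**Figure D3:**
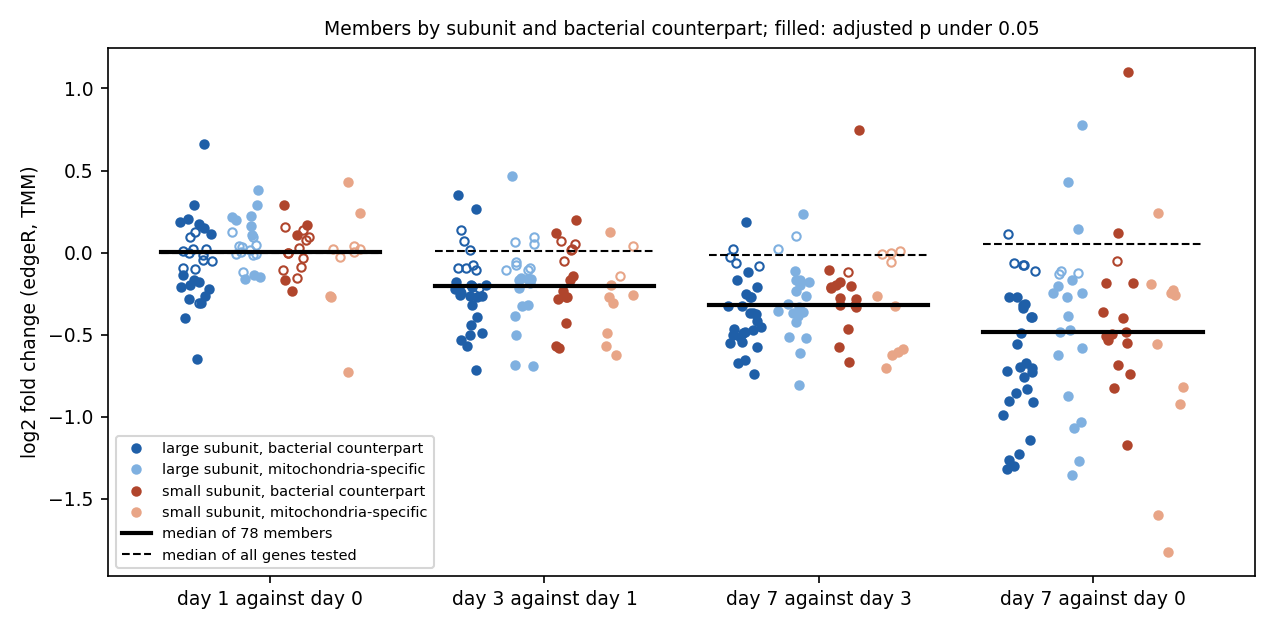
Log2 fold changes of the genes in each comparison on the TMM-normalised count scale, by subunit and by whether a bacterial counterpart exists; each point is a gene, filled where the adjusted p was under 0.05, and Mrps36 is counted in the median but not drawn. The solid line is the median of the 78 genes, near 0 at day 1 against day 0 and at -0.48 at day 7 against day 0, and the dashed line that of all genes tested.

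All classes held more lower than higher genes on the count scale. Of the large subunit genes, 25 of 30 with a bacterial counterpart were lower and 0 higher (median log2 fold change -0.68), and 15 of 21 specific to mitochondria were lower and 3 higher (median -0.27). Of the small subunit genes, 13 of 16 with a bacterial counterpart were lower and 2 higher (median -0.49), and 9 of 10 specific to mitochondria were lower and 1 higher (median -0.41). In log2(TPM + 1) the median of the large subunit genes specific to mitochondria was 0.05, with 9 lower and 8 higher, whereas the medians of the other classes stayed below 0. Differences between classes were not tested.

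Among the lower genes of the small subunit, Mrps18b, classed here as specific to mitochondria although its protein is related to a bacterial one (ENSMUSG00000024436, chr17:35910379-35916389, minus strand, GRCm38), had 35.9, 32.6 and 34.4 TPM at day 7, against 92.4, 93.1 and 97.6 TPM at day 0. The groups were far apart, and its log2 fold change was -1.82 ± 0.06 (approximate SE; edgeR's quasi-likelihood test, adjusted p = 2.57e-24). Most of that fall was already present at day 2, where its mean was 53.2 TPM. Mrps27, a small subunit protein of the pentatricopeptide repeat family that binds RNA (chr13:99344786-99415562, plus strand), had 24, 23.6 and 24.2 TPM at day 7, against 54.2, 55.4 and 59.7 TPM at day 0. These groups did not overlap either, and the change was -1.60 ± 0.06 (adjusted p = 1.36e-23). Exons of both genes overlap a transcript of the opposite strand, over 30.5% of the exon bases of Mrps18b and 24.2% of those of Mrps27. Whether the counting used strand is not given in the sources used here, so both values are uncertain to that extent.

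Among the lower genes of the large subunit, Mrpl45, whose human protein lies at the mouth of the peptide exit tunnel and faces the inner membrane (chr11:97315716-97329920, plus strand), had 43.1, 43.1 and 41.9 TPM at day 7, against 84.8, 80.2 and 84.7 TPM at day 0. Its log2 fold change was -1.36 ± 0.04 (edgeR, adjusted p = 3.31e-27), with no overlap between the days. Mrpl12, the stalk protein that recruits translation factors (chr11:120484613-120489065, plus strand), had 78.1, 71.5 and 81.2 TPM at day 7, against 140, 144 and 152 TPM at day 0, and changed by -1.32 ± 0.07 (adjusted p = 1.49e-18). The day 7 libraries were again all below those of day 0. Mrpl1 (chr5:96209493-96266727, plus strand) had 11.3, 10.3 and 10.4 TPM at day 7, against 26.4, 26.6 and 26.6 TPM at day 0, and changed by -1.30 ± 0.06 (adjusted p = 2.83e-19). Mrps30, a large subunit protein despite its name (chr13:118378381-118387252, minus strand), had 37.3, 36 and 38.3 TPM at day 7, against 65.2, 69.2 and 75.7 TPM at day 0, a log2 change of -1.27 ± 0.05 (adjusted p = 6.59e-22). In each of these genes the day 7 libraries lay close together and well below day 0.

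Of the 6 higher genes, Mrps6, a small subunit protein with a bacterial counterpart (chr16:92058270-92112227, plus strand), moved the most. It had 95.8, 90.5 and 95.5 TPM at day 7, against 33.4, 33.2 and 35.7 TPM at day 0, and its log2 fold change was 1.10 ± 0.07 (edgeR, adjusted p = 1.05e-16). All day 7 libraries were above all those of day 0, and its mean was highest at day 7 of all time points. Its exons share 10.4% of their bases with Slc5a3 and 19.9% with Gm49711 on the same strand. Slc5a3, a myo-inositol transporter gene, was itself listed at a mean of 8.54 TPM at day 7, against 2.83 TPM at day 0, and the part of shared reads in the Mrps6 value was not tested.

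Mrpl41, a large subunit protein specific to mitochondria (chr2:24974117-24975098, minus strand), had 67.6, 65.1 and 58.3 TPM at day 7, against 29.1, 26.1 and 31.4 TPM at day 0, a log2 change of 0.78 ± 0.08 (edgeR, adjusted p = 5.76e-11). The groups were clearly separate, and the level had already reached 56.1 ± 2.58 TPM at day 3 (SD, n = 3). Mrpl48, another such protein, had 42.9, 40.5 and 38.5 TPM at day 7, against 30.0, 26.0 and 28.3 TPM at day 0, a change of 0.43 ± 0.07 (adjusted p = 2.53e-06). The changes of the small subunit genes Mrps33 and Mrps17 and of the large subunit gene Mrpl43 were 0.24, 0.12 and 0.14. Mrpl43 shares 33.4% of its exon bases with Twnk, the gene of the mitochondrial DNA helicase, on the opposite strand. The call of Mrpl43 was lost without any of day 0 replicates 1 and 3 and day 7 replicates 1 and 2 (adjusted p of 0.0647 to 0.117), and that of Mrps17 without day 0 replicate 3 or day 7 replicate 3 (adjusted p = 0.0718 and 0.0632 by edgeR), and Mrps17 was lower, at -0.07, in TPM centred on the median gene.

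**Figure D4:**
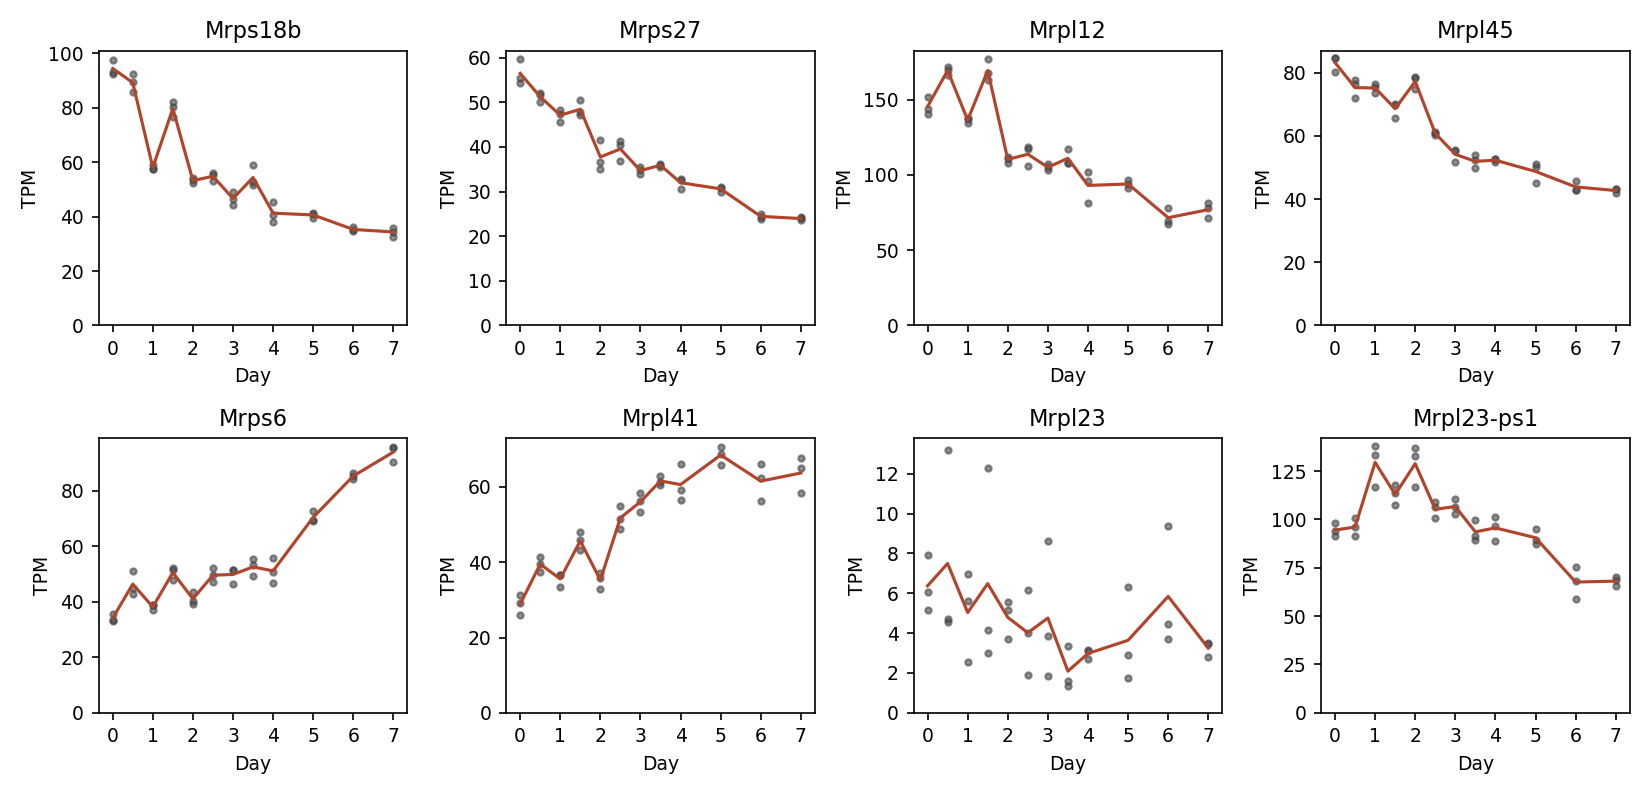
Deposited TPM of 6 genes with large changes, and of Mrpl23 and its processed pseudogene, over days of RA and SAG. Points are libraries, 3 per day, and the line joins their means. Mrps18b, Mrps27, Mrpl12 and Mrpl45 end below day 0 in all libraries, Mrps6 and Mrpl41 end above it, and the Mrpl23 libraries scatter widely below the level of the pseudogene.

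The 9 genes that were not called between days 7 and 0 were Mrpl14, Mrpl20, Mrpl32, Mrpl33, Mrpl34, Mrpl52, Mrpl57, Mrps18a and Mrps21, with log2 fold changes of -0.13 to 0.11. All 9 were called higher in log2(TPM + 1) by limma. The most even genes over the whole course were Mrpl32, Mrpl33, Mrpl43, Mrps21 and Mrps17, whose time point means of log2 CPM spanned 0.23 to 0.32. The widest spans were those of Mrps18b, Mrpl12, Mrps27, Mrpl45 and Mrpl40, at 1.29 to 1.76. Mrps21 had 219, 202 and 223 TPM at day 7, against 171, 181 and 170 TPM at day 0, a log2 fold change of -0.05 on the count scale (edgeR, adjusted p = 0.418) and 0.30 in log2(TPM + 1). It was thus higher in every day 7 library in TPM, with no call in counts.

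Promoters are shown for the 3 genes with the largest falls and the 2 with the largest rises at day 7 against day 0, as RefSeq gives them on GRCm38.p6 (250 bases before the start to 50 after it, each read along its gene's own strand). Capitals mark letters known as core binding sequences of NRF1, which are the capitals in Mrpl45 and leave 1 base free, of ETS factors, CCGGAAGT, and of YY1, AAGATGGCG, on either strand; all of these factors are known regulators of nuclear genes for mitochondrial proteins. The windows are chr17:35916391-35916690 (minus strand) for Mrps18b, chr13:99344536-99344835 (plus) for Mrps27, chr11:97315466-97315765 (plus) for Mrpl45, chr16:92058086-92058385 (plus) for Mrps6 and chr2:24975049-24975348 (minus) for Mrpl41.
Mrps18b: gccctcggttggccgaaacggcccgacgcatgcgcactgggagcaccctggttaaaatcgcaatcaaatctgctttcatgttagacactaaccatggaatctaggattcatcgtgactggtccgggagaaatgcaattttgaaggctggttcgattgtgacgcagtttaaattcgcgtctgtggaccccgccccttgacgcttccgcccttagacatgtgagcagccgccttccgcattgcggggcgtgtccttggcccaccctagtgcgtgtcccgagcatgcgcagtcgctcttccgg
Mrps27: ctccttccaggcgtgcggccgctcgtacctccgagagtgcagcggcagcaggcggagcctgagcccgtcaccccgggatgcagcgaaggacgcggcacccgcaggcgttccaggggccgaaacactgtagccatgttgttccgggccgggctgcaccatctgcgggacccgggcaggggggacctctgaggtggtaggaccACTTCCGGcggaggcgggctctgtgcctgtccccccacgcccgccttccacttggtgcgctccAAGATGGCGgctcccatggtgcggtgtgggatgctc
Mrpl45: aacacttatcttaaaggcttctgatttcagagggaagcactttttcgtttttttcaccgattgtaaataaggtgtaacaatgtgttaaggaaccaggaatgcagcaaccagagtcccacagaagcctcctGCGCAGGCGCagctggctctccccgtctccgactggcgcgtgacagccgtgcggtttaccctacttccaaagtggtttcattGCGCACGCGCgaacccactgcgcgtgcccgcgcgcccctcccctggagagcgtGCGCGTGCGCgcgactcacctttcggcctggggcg
Mrps6: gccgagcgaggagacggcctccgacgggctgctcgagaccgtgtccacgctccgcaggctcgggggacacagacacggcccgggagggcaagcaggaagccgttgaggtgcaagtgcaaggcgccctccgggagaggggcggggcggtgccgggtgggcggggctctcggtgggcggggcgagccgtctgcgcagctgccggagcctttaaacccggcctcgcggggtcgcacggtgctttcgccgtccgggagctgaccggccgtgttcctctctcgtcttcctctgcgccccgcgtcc
Mrpl41: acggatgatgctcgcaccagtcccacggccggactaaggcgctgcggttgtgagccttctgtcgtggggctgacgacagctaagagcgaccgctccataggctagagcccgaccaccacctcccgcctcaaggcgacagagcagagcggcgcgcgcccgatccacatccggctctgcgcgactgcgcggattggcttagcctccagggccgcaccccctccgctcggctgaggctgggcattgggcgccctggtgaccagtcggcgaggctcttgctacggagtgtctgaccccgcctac
The Mrps27 window holds ETS letters that begin 49 bases before the start and YY1 letters 14 bases after it, and Mrpl45 holds NRF1 letters at 3 places. The windows of Mrps18b, the gene with the largest fall, and of Mrps6 and Mrpl41, which rose, hold none of these letters, nor the E-box CACGTG. With the shorter NRF1 spelling TGCGCA, Mrps18b has 2 matches and Mrps6 has 1. With the shorter ETS spelling CCGGAAG, Mrps18b has 1 match, and Mrps6 and Mrpl41 have 0. Over all genes with a promoter in the table, 22 of 54 that were lower at day 7, 2 of 6 that were higher and 7 of 9 that were not called held NRF1, ETS or YY1 letters.

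The table held 75 promoters for 69 of the genes, and none for Mrpl4, Mrpl13, Mrpl15, Mrpl19, Mrpl38, Mrpl54, Mrps28, Mrps34 and Mrps35. NRF1 letters were in 13 of the 75 (17.3%), ETS letters in 12 (16.0%) and YY1 letters in 8 (10.7%). Among all promoters of the table the shares were 4.60%, 3.89% and 1.40%, and among those of tested coding genes 8.74%, 6.91% and 2.55%. At least 1 of the 3 motifs was in 41.3% of the 75, against 16.9% of the promoters of tested coding genes. The E-box was in 9.33%, against 9.47%. The spellings were settled after 12 had been searched and their shares seen. A shorter NRF1 spelling, TGCGCA, was in 29.3% of the 75, against 12.6% among tested coding genes. A shorter ETS spelling, CCGGAAG, was in 34.7%, against 15.3%. A shorter YY1 spelling, AAGATGGC, was in 16.0%, against 3.86%. The GC box GGGCGGG was in 42.7%, against 45.0%. The motifs do not overlap in the windows shown, a match is a description of letters and not a site, and no test was made of these shares.

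The first day of RA and SAG was examined by setting day 1 against day 0. Of the 78 genes, 19 were higher and 19 lower by edgeR's quasi-likelihood test, beside 31% and 31.5% of all genes tested, and their median log2 fold change was 0.00. Both counts lay below those shares, and the genes had no common net direction at day 1. In between they had moved up and back, with 57 higher at day 0.5 and 58 lower from there to day 1 in TMM-scaled means. Mrpl14, a large subunit protein with a bacterial counterpart, had 82.8, 94.1 and 83.4 TPM at day 1, against 53.8, 55.3 and 54.3 TPM at day 0, and changed by 0.66 ± 0.06 (adjusted p = 6.3e-11). Mrps33, a small subunit protein, had 101, 104 and 106 TPM at day 1, against 81.3, 70.6 and 77.9 TPM at day 0, a change of 0.43 ± 0.05 (adjusted p = 9.87e-09). Both were higher in every day 1 library. Mrpl48, Mrpl41, Mrpl22 and Mrps28 followed with changes of 0.38, 0.29, 0.29 and 0.29, although Mrps28 was no longer called when day 0 replicate 1 was left out (0.20, adjusted p = 0.0684).

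In the other direction, Mrps18b had 58.9, 57.6 and 57.4 TPM at day 1, against 92.4, 93.1 and 97.6 TPM at day 0, a log2 change of -0.73 ± 0.06 (edgeR, adjusted p = 3.24e-13). Mrpl16, a large subunit protein with a bacterial counterpart, had 31.8, 30.9 and 32.8 TPM at day 1, against 50.2, 48.8 and 49.6 TPM at day 0, a change of -0.65 ± 0.07 (adjusted p = 4.12e-10). No library of one day reached the range of the other in either gene. Mrpl13, Mrpl1, Mrpl20 and Mrps27 changed by -0.40, -0.31, -0.28 and -0.27. For Mrps18b the day 1.5 mean stood at 79.7 TPM and the day 2 mean at 53.2 TPM, so that its early course was a fall, a partial return and a second fall.

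Day 3 was compared with day 1, when neuronal markers (Tubb3, Elavl3, Nefl and Map2) summed to 1638 to 1749 TPM, against 48.8 to 53.0 TPM at day 1. Of the 78 genes, 49 were lower and 6 higher by edgeR's quasi-likelihood test, beside 33.6% and 35.1% of all genes tested, with medians of -0.20 and 0.01. In deposited TPM, where the median gene moved up by 0.13, the split was 26 lower and 19 higher by limma, beside 21.7% and 42.9% of all genes. Mrpl1 had 10.7, 13.7 and 12.4 TPM at day 3, against 17.8, 20 and 24.2 TPM at day 1, and changed by -0.72 ± 0.06 (adjusted p = 6.34e-12). Mrpl45 had 55.7, 51.7 and 55.1 TPM at day 3, against 73.7, 76.3 and 75.4 TPM at day 1, a change of -0.69 ± 0.03 (adjusted p = 2.22e-18). Neither gene's ranges overlapped. Mrps30, Mrps27, Mrps9 and Mrpl12 changed by -0.68, -0.62, -0.58 and -0.57.

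The genes that rose between days 1 and 3 were led by Mrpl41, with 56.3, 58.5 and 53.4 TPM at day 3, against 36.6, 36.7 and 33.5 TPM at day 1, a log2 change of 0.46 ± 0.08 (edgeR, adjusted p = 2.66e-06). Mrpl34, a large subunit protein with a bacterial counterpart, had 126, 125 and 117 TPM at day 3, against 91.3, 83.4 and 79.7 TPM at day 1, a change of 0.35 ± 0.06 (adjusted p = 1.29e-05). Both were separate in all libraries. Mrpl20 rose by 0.27 after its fall at day 1. The calls of Mrps6 (0.20), Mrps23 (0.13) and Mrps17 (0.12) were each lost under at least 1 alternative.

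Day 7 was compared with day 3, when motor neuron markers were at their highest median. The glial markers summed to 637 to 702 TPM at day 3, of which Fabp7, a gene that neural progenitors also express, gave 659.5 TPM on average, while Nfia, Slc1a3 and Aldh1l1 averaged 7.47, 8.22 and 3.43 TPM. Of the 78 genes, 63 were lower and 3 higher by edgeR's quasi-likelihood test, beside 36.1% and 36.2% of all genes tested, with medians of -0.32 and -0.01. In deposited TPM, where the median gene moved up by 0.10, 42 were lower and 7 higher by limma, beside 26.3% and 42.9% of all genes. Summed markers of cell division were 235 to 284 TPM at day 7, against 969 to 984 TPM at day 3, and their part in the falls was not tested. Mrpl40, a large subunit protein specific to mitochondria, had 45.0, 41.5 and 43.0 TPM at day 7, against 70.3, 73.1 and 69.0 TPM at day 3, a change of -0.81 ± 0.07 (adjusted p = 8.99e-12). Mrps27 changed by -0.70, Mrpl15 by -0.67, Mrps9 by -0.66 and Mrpl12 by -0.65. The day 7 libraries of these genes lay below all those of day 3.

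Mrpl23 was also called lower at day 7, by -0.74 ± 0.27 (edgeR, adjusted p = 0.0161), but it had 2.79, 3.49 and 3.46 TPM at day 7, against 3.83, 8.60 and 1.84 TPM at day 3. Its TPM ranges overlapped, and leaving out day 3 replicate 2 (-0.47, adjusted p = 0.156) or day 7 replicate 1 (-0.65, adjusted p = 0.0642) ended the call. Mrps6 had 95.8, 90.5 and 95.5 TPM at day 7, against 46.6, 51.6 and 51.3 TPM at day 3, a change of 0.75 ± 0.07 (adjusted p = 3.27e-12). Its groups were far apart, and most of its rise over the course fell after day 4, where its mean was 51.1 TPM. Mrpl48 and Mrpl16 were the other genes that rose, by 0.24 and 0.18, and Mrpl16 was not called without day 7 replicate 1 (0.11, adjusted p = 0.206) or day 3 replicate 3 (0.18, adjusted p = 0.0547).

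Other genes of mitochondrial gene expression were taken from lists, here for day 7 against day 0. In counts 41.2% of all genes tested were lower and 44.1% higher. The 5 ribosomal subunits that the symbol rule does not catch (Dap3, Chchd1, Aurkaip1, Ptcd3 and Gadd45gip1) were all lower, with a median log2 fold change of -0.38. Ptcd3, a pentatricopeptide repeat protein of the small subunit, had 50.6, 53.5 and 54.5 TPM at day 7, against 115, 112 and 110 TPM at day 0, a change of -1.47 ± 0.04 (edgeR, adjusted p = 2.72e-26). Of 21 genes for ribosome assembly and rRNA modification, 16 were lower and 3 higher (median -0.48). The largest falls there were those of Fastkd2 (-1.59), which helps assemble the large subunit, Gtpbp10 (-1.44), an assembly GTPase, and Rpusd4 (-1.12), a pseudouridine synthase, and the largest rise was that of Nsun4 (0.56), an rRNA methyltransferase. Of 15 translation factors, 12 were lower and 0 higher (median -0.58), led by Lrpprc (-1.51), which stabilises mitochondrial mRNAs, and Gfm1 (-1.44), an elongation factor. In log2(TPM + 1) these 3 lists had 3, 10 and 8 genes lower and 1, 7 and 3 higher. On that scale 30.6% of all genes tested were lower and 53.1% higher.

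Of 22 genes listed for mitochondrial aminoacyl-tRNA synthetases, 18 were lower and 2 higher (median -0.88 by edgeR). These enzymes charge tRNAs, and the list includes 3 subunits of the glutaminyl-tRNA amidotransferase. It also holds Gars and Kars, whose enzymes serve the cytosol too. Yars2 had 17.4, 14.3 and 17.3 TPM at day 7, against 37.9, 45.6 and 42.5 TPM at day 0, a change of -1.73. Hars2 and Wars2 were the higher ones, at 0.33 and 0.28. Of 13 genes for transcription and replication of mitochondrial DNA, 10 were lower and 2 higher (median -0.91). Tfam, which packages mitochondrial DNA and starts its transcription, had 66.6, 60.7 and 50.1 TPM at day 7, against 128, 118 and 134 TPM at day 0, a change of -1.32. Mgme1, a nuclease of mitochondrial DNA maintenance, changed by -2.70, and Mterf2 by 0.83. The direction of both lists was the same in log2(TPM + 1), with 14 lower and 4 higher, and 9 lower and 3 higher. All genes tested stood at 41.2% lower and 44.1% higher in counts, and at 30.6% and 53.1% in log2(TPM + 1).

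Of the 13 mRNAs encoded by mitochondrial DNA, which the mitochondrial ribosome translates, 8 were higher and 1 lower at day 7 than at day 0 (median log2 fold change 0.57 by edgeR), where 44.1% of all genes tested were higher. The count of higher ones was between 6 and 9 of 13 when single libraries were left out, and its low end is close to that share. The course was uneven, with a median difference from day 0 in log2(CPM + 1) of 0.55 at day 2.5, 0.18 at day 3, 0.04 at day 4, -0.06 at day 5 and 0.59 at day 7. Single values of the list reached -8.07 at day 3 against day 1 and 7.09 at day 7 against day 3, and neither was called. The mRNA mt-Nd5, for a subunit of complex I, had 1906, 2041 and 2095 TPM at day 7, against 748, 615 and 562 TPM at day 0, a change of 1.29 ± 0.13 (adjusted p = 3.53e-11). Its groups were wide apart. The lower one, mt-Atp8, had 1515, 1263 and 1518 TPM at day 7, against 4138, 1492 and 1306 TPM at day 0, where a single library was high, and without that library, day 0 replicate 1, the change was -0.34 and not called (adjusted p = 0.154). Libraries of poly(A) RNA measure mitochondrial mRNAs only as far as their short tails are captured. The 83 nuclear genes of oxidative phosphorylation subunits were split, with 45 lower and 19 higher in counts (median -0.15, beside 0.05 for all genes tested). In log2(TPM + 1) 11 were lower and 52 higher (median 0.20, beside 0.28), where 30.6% and 53.1% of all genes tested were so. The sign of their median thus depends on the scale, but on both scales their median lay below that of all genes. They were picked by symbol, which also took in assembly factors such as Sdhaf1.

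The 82 cytosolic ribosomal protein genes encode the proteins of the ribosome of the cytoplasm. Of these, 81 were lower and 1 higher at day 7 than at day 0 (median -1.34 by edgeR), and in log2(TPM + 1) the counts were 81 and 1 as well. Beside them, 41.2% of all genes tested were lower in counts and 30.6% in log2(TPM + 1), and 44.1% and 53.1% were higher. Rps2 had 986, 915 and 989 TPM at day 7, against 3752, 3860 and 3925 TPM at day 0, a change of -2.36. The exception was Rpl5, at 0.26. The difference between the cytosolic and the mitochondrial set was not tested.

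**Figure D5:**
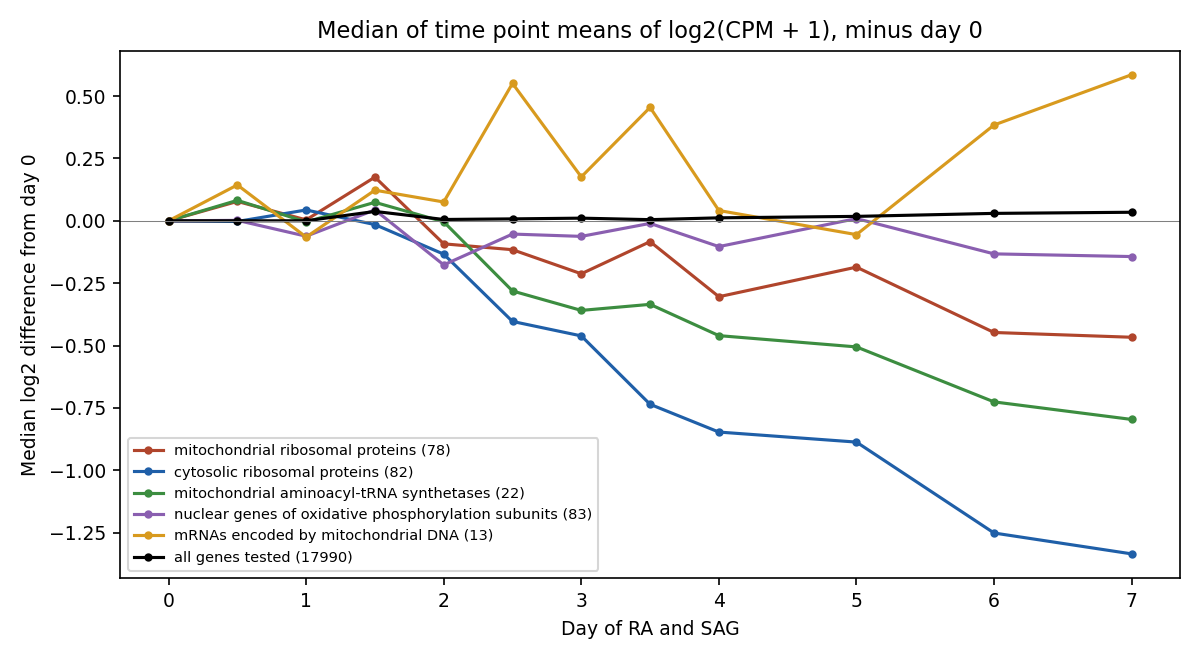
Median over each list's genes of the time point mean of log2(CPM + 1) minus that at day 0, by day of RA and SAG, with the number of genes in brackets. The mitochondrial ribosomal protein genes peak at day 1.5 and end at -0.47, above the cytosolic ribosomal protein genes at -1.33, while the mRNAs encoded by mitochondrial DNA end above 0.

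Of 10 regulators linked to mitochondrial biogenesis, 8 were lower and 2 higher at day 7 than at day 0 by edgeR, against 4 lower and 3 higher in log2(TPM + 1). The shares of all genes tested were 41.2% lower and 44.1% higher in counts, and 30.6% and 53.1% in log2(TPM + 1). The 4 lower in log2(TPM + 1) are thus near the share of all genes. Nrf1, the factor whose letters are marked above, had 29.7, 27.2 and 30.4 TPM at day 7, against 61.4, 61.2 and 65.4 TPM at day 0, a change of -1.00 ± 0.05 (adjusted p = 4.01e-20). The related coactivator genes Pprc1 and Ppargc1b changed by -2.32 and -2.97. Ppargc1a, the best known coactivator of that family in mitochondrial biogenesis, had 10.4, 7.52 and 8.37 TPM at day 7, against 0.17, 0.21 and 0.15 TPM at day 0, a change of 5.20 ± 0.20 (adjusted p = 2.6e-22). It was listed near 0 at day 0 and was present in every day 7 library. Myc was higher as well, at 22.6, 21.4 and 22.8 TPM at day 7, against 6.28, 7.00 and 7.09 TPM at day 0, a change of 1.37 ± 0.10 (adjusted p = 5.85e-15).

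Some values of the set are uncertain because reads can belong to more than 1 gene. By GENCODE M21 exons, 32 of the 78 genes share exon bases with another gene. The largest shares were those of Mrpl53 with Gm42688 on the same strand (88.0%), Mrps25 with Nr2c2 on the opposite strand (69.8%), Mrps34 with Mapk8ip3 on the opposite strand (63.4%) and Mrps34 with Nme3 on the same strand (37.0%). Mrps11 and Mrpl46, both of the set, overlap on opposite strands by 173 bases. Mrpl27, Mrpl22 and Mrps18b share 31-base words with the predicted genes Gm6304, Gm6997 and Gm13552 (38.8%, 43.2% and 33.9% of the words in their longest coding transcripts). Gm6304 and Gm13552 were listed at time point means of at most 0.26 and 0.79 TPM. Mrpl48-ps, the processed pseudogene of Mrpl48, was listed at means of 14.5 to 23.2 TPM, beside 28.1 to 40.6 TPM for Mrpl48. Of the words in the longest coding transcript of Mrpl48 (4285 bases), 8.76% occur in another gene, and its shorter transcripts were not examined.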

How the data were processed

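The 36 libraries were grouped by the time point in their titles. Per the submitters' processing notes, bcl2fastq 2.20.0, RSEM and GRCm38 were used. Aligner, annotation release and use of strand: not given in the sources used here. The deposited values are expected counts from RSEM, of which 6.87% were not whole, and TPM, in which a change in abundant transcripts moves the share of all others. Of 51912 gene IDs, 51719 matched GENCODE M21 (GRCm38), which gave symbols, gene types, coordinates (counted from 1) and exon overlaps.

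Expected counts were rounded. Genes were filtered with filterByExpr by time point, and edgeR 4.0.16 fitted 12 groups to all 36 libraries after TMM scaling, with 24 residual degrees of freedom (glmQLFit, glmQLFTest; R 4.3.3). Benjamini-Hochberg adjustment ran over the 17990 genes tested, and a gene was called at an adjusted p under 0.05. Approximate standard errors were obtained as |log2 fold change| over the root of the F statistic. The comparison of day 7 with day 0 shares its libraries with 2 of the other comparisons. In counts simulated for day 7 against day 0 over 17990 genes, the fit recovered 78.1%, 81.7% and 98.4% of genes changed 1.5-fold, 2-fold and 4-fold, with 10 false calls. For the other comparisons it recovered 61.5% to 68.8% of genes changed 1.5-fold, with 6 to 12 false calls. Each simulated gene took the spread of the trend and few were changed, whereas most genes were called in the data at day 7 against day 0. Replicate pairs differed by more than sampling noise (3.13 to 54.1 chi-square units for each degree of freedom), and 0 were identical.

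Named genes were the 6 largest rises and falls per comparison among called genes whose TMM-scaled CPM did not overlap, the extremes of level and of range over the course, genes against the majority, genes that share exon sequence, and up to 3 called genes per direction from each list. Some of these are given only in counts. List genes were found by symbol, except Mtres1. The genes and lists were chosen with earlier results of these data known.

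Results were recomputed with DESeq2 1.42.0, with median-of-ratios size factors in edgeR, with the replicate number as a block, on the 6 libraries of a comparison alone, with single replicates left out, without the filter, and with limma 3.58.1 on log2(TPM + 1) or log2(TPM + 0.1). A lenient filter (a mean of more than 1 count per library) was added after the unfiltered fit was seen to fail. Centring of the TPM values was added after the data were seen, in 2 forms. Promoters were RefSeq's, and motif letters were settled after 12 spellings had been searched. Deviations of same-numbered libraries of days 7 and 0 had correlations of 0.385, 0.186 and 0.127, but day 7 replicate 3 went more with day 0 replicate 2. In the other comparisons the same-numbered libraries did not all have positive correlations. Between all time points the median correlation was 0.0016 for libraries of the same number and 0.00012 for those of other numbers. The labels do not say that a number marks a shared culture.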

Additional observations from a re-analysis of the deposited data

How the results depend on the processing

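Counts of genes stayed within 1.5 times the reported ones under median-of-ratios scaling, DESeq2, only the 6 libraries compared, the replicate block and each replicate left out. They did so without a filter too, but that fit says nothing about stability. Its prior degrees of freedom became infinite, against 8.25 with the filter, so that each gene took its spread from the trend. Its p-values are therefore no guide, and it called fewer genes at day 1 against day 0 (16 higher and 15 lower). A lenient filter, a mean of more than 1 count per library, was added after the infinite value was seen. It gave 9.44 prior degrees of freedom over 21088 genes, 62 genes lower and 6 higher at day 7 against day 0, and 20 higher and 16 lower at day 1 against day 0. Of 230 calls of named genes, 4 were lost under it, 5 with DESeq2, 32 were lost or turned round in log2(TPM + 1), and 0 were lost under the replicate block, where Mrps18b, for example, was at -1.82 at day 7 against day 0. These named genes were largely picked for large changes in the main fit, and include genes of the other lists. Over all 78 genes the block kept 17 of 19 lower calls at day 1 against day 0 and 62 of 63 at day 7 against day 3. It kept every call in the other comparisons and directions. Leaving out single libraries gave 61 to 64 genes lower and 4 to 6 higher at day 7 against day 0, 55 to 60 and 2 to 4 at day 7 against day 3, 46 to 51 and 4 to 7 at day 3 against day 1, and 15 to 20 and 16 to 19 at day 1 against day 0. Over the 12 time points 76 to 78 genes were called.

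With limma on log2(TPM + 1) and on log2(TPM + 0.1) alike, 39 genes were lower and 20 higher at day 7 against day 0, 26 and 19 at day 3 against day 1, and 7 were higher at day 7 against day 3. The cause was not tested. Centring was tried in 2 forms, both after the data were seen. The first subtracted each library's plain median and overshot, leaving the median gene at -0.22, -0.13 and -0.29 at day 3 against day 1, day 7 against day 3 and day 7 against day 0, and gave 62, 66 and 73 genes lower and 2, 1 and 2 higher. After that result was seen, the median difference from gene means was used in its place, which left the median gene at -0.02, -0.03 and 0.00 and gave 46, 56 and 60 lower and 6, 3 and 5 higher.

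At day 7 against day 0, log2 fold changes in log2(TPM + 1) and log2(TPM + 0.1) were of the other sign, among the genes named by rule and counting those not called in counts but called in TPM, for Mrps21 (0.30 and 0.30), Mrps23 (0.042 and 0.042), Mrpl30 (0.062 and 0.062), Mrpl57 (0.22 and 0.24), Mrpl33 (0.30 and 0.30), Mrpl14 (0.29 and 0.30), Mrpl27 (0.097 and 0.098), Mrpl53 (0.19 and 0.19), Mrpl58 (0.050 and 0.051), Mrpl9 (0.023 and 0.024), Mrps11 (0.21 and 0.21), Mrps24 (0.17 and 0.18), Mrps26 (0.050 and 0.051) and Mrps34 (0.13 and 0.13). Outside that rule, Mrpl39, Mrpl50, Mrpl54 and Mrps12 were lower in counts and above 0 in log2(TPM + 1) as well. Under the plain median they were so for Mrpl48 (-0.054), Mrps33 (-0.053), Mrpl43 (-0.077), Mrps17 (-0.37), Mrpl32 (-0.24), Mettl17 (-0.26) and Rpl5 (-0.26). At day 3 against day 1 Mrps23 (-0.092) and Mrps17 (-0.15) also changed sign there. Of the named values, only that of Mrps17 at day 7 against day 0 (-0.070) did so with the second centring. Summed expected counts, as a share of the library, gave log2 ratios of -0.13 at day 3 against day 1 (deposited TPM: -0.016), -0.30 at day 7 against day 3 (deposited TPM: -0.15) and -0.45 at day 7 against day 0 (deposited TPM: -0.16). Every library held at least 290 counts of each gene but Mrpl23, whose counts ran from 36.6 to 191.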
